A study of Mus musculus with 5 samples.

Results

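The Iroquois homeobox genes Irx1, Irx2, Irx3, Irx4, Irx5 and Irx6 were examined in H3K27me3 ChIP-seq data of mouse molar mesenchyme. They are 6 of 21938 nuclear protein-coding genes of the annotation. They were taken as a gene family, with Irx1, Irx2 and Irx4 on chromosome 13 and Irx3, Irx5 and Irx6 on chromosome 8, and each was given a window of its gene body with 5 kb on each side. The windows held 31 of 22757 peaks of H3K27me3 replicate 1 called against input, 33 of 24881 peaks of the same library called against IgG, and 20 of 33379 peaks of replicate 2 called against input. The chromosome 13 genes carried nearly all of them.

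The mice were wildtype C57BL/6 at postnatal day 3, and the molars were freed of epithelium before chromatin was taken. There were 2 libraries with an antibody against H3K27me3, 2 input libraries and 1 library with IgG, a nonspecific antibody. No group carried a transgene, deletion or treatment. How many mice made up a library is not given in the sources used here, and each SD below measures the spread between 2 libraries, which may be technical.

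Iroquois genes encode transcription factors with a TALE homeodomain, a DNA-binding domain with an extra loop, and they take part in patterning of the heart, limb, lung and nervous system. In mammals they lie in a pair of clusters of 3 genes that arose by duplication of an ancestral cluster. H3K27me3 is the trimethylated form of histone H3 lysine 27. Ezh2, the enzyme of Polycomb repressive complex 2, places this mark, which is known to cover CpG-rich genes of developmental regulators in cells that do not transcribe them.

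The depth of the lists bears on every value. After removal of duplicates, 30369351 tags remained for H3K27me3 replicate 1, 23688420 for its input, 24440452 for IgG, 49947919 for replicate 2 and 51681224 for its input. The lowest peak of a list stood for a mean of 4 overlapping tags in replicate 1 and of 6 in replicate 2, and the highest peak in any Irx window for 6.08 and 7.40 tags, respectively. No Irx peak had a −log10 q-value above 0 in the deposited lists (0 of 31, 33 and 20). Nearly all peaks of the lists were alike in this, as 1 of 22757, 0 of 24881 and 245 of 33379 had such a value. The position of a single peak was thus subject to large counting error, and the sum over a window is the firmer measure. In chromatin of a whole tissue, fewer marked cells and less mark per cell cannot be told apart. A peak list holds no expression, so the tissue label was only looked at through the mark. Within 1 kb of the gene start, 2 of 7 markers of dental mesenchyme and 2 of 6 epithelial markers had a peak in replicate 1, 1 of 7 and 2 of 6 with IgG as the control, and 2 of 7 and 0 of 6 in replicate 2. Of all protein-coding genes, 3.87%, 4.52% and 4.16% had such a peak in these lists. The keratin genes Krt14 and Krt5 had 0 peaks in every list.

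The stretches that were called in both replicates against input are shown first, because there these 2 calls coincided base by base. There were 4 of them in the 6 windows, 3 at Irx4 and 1 at Irx2. With IgG as the control, 7 of 33 replicate 1 peaks (21.2%) shared bases with replicate 2, some at places not printed here. For the whole IgG list this share was 3.32%. The IgG call had no peak at the Irx2 stretch. They are given on the plus strand of GRCm38, which is the direction of transcription of both genes, with CG dinucleotides in capitals. The letters CG read the same on both strands.
Irx4, 2283 bp upstream of the gene start at its nearer end, chr13:73258109-73258196: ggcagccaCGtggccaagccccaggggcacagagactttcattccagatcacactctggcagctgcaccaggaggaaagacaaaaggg
Irx4, first stretch downstream of the start, in an intron, chr13:73260998-73261043: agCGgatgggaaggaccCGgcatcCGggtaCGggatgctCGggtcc
Irx4, second stretch downstream of the start, in an intron, chr13:73261523-73261574: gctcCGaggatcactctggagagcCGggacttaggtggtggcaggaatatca
Irx2, in an intron, chr13:72633020-72633065: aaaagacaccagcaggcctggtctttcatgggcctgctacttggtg
The stretch of 46 bp that began 519 bp into Irx4 held 5 CG, and the Irx2 stretch, also of 46 bp, held 0. GC content was 69.6% in the former and 54.3% in the latter.

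Promoters are shown next, to place the peaks of Irx2 and Irx4 relative to the gene start. The RefSeq promoter table for GRCm38.p6 matched 3 of the 6 genes and gave 250 bases before and 50 after the start, printed in the direction of transcription with CG in capitals. It had no entry for Irx1, Irx5 and Irx6.
Irx2, chr13:72628570-72628869, plus strand: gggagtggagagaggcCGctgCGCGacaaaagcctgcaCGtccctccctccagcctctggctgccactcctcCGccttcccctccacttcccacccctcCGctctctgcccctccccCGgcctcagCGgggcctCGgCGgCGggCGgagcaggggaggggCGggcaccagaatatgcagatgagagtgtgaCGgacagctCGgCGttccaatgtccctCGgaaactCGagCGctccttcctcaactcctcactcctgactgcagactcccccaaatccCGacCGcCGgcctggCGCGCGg
Irx4, chr13:73260247-73260546, plus strand: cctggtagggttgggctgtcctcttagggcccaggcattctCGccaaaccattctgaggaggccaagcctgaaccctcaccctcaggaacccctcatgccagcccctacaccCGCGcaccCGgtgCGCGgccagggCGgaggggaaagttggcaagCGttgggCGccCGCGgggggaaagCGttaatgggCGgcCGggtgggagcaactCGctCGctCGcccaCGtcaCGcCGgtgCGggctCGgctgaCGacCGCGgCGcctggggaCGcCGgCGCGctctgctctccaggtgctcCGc
Irx3, chr8:91801605-91801904, minus strand: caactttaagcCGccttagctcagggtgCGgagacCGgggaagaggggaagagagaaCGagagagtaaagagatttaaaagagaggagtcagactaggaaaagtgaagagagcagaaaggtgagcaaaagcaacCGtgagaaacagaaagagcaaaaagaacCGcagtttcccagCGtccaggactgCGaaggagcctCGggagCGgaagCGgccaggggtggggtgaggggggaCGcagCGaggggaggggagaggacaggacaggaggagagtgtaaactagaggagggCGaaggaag
The Irx4 promoter held 31 CG, the Irx2 promoter 25 and the Irx3 promoter 14. The Irx3 promoter of this table lies inside the gene body, downstream of the gene start used for the other distances. Its count is therefore not that of the annotated start. In the 2 kb around the annotated start, the CG content was 8.70 per 100 bp at Irx2, 6.85 at Irx3 and 5.85 at Irx4. Of 32851 promoters of this length, 94.6% held at least 1 CG and the median was 7. As many CG as in Irx4 were present in 10.6% of promoters, as in Irx2 in 18.4% and as in Irx3 in 36.3%. None of the 3 promoters was touched by a peak in any list (0 in each). The share of all promoters touched was not counted. Even within 1 kb of the start, only 3.87%, 4.52% and 4.16% of protein-coding genes had a peak in the 3 lists. The absence of peaks is therefore no trait of these promoters. The peak-free stretch around the Irx2 promoter was 2546 bp long in replicate 1 and 847 bp in replicate 2, and around the Irx4 promoter it was 1158 bp and 2695 bp. At Irx3 it was 73236 bp and 18860 bp. The nearest peak was 714 bp and 200 bp from the Irx2 promoter in replicates 1 and 2, and 407 bp and 345 bp from that of Irx4. The gap at Irx3 was longer downstream (70760 bp and 12583 bp) than upstream (2176 bp and 5977 bp). Upstream of the Irx4 promoter, the next replicate 2 peak was also 2050 bp away.

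To ask which members carried the mark, peaks in each window were counted. In replicate 1 against input all 6 genes had a peak, where 25% of protein-coding genes did. In replicate 1 against IgG 4 of 6 had one (background 25.9%), and in replicate 2 4 of 6 (background 35.7%). Both replicates had a peak at Irx1, Irx2, Irx4 and Irx5, which is 4 of 6 beside 15.7% of protein-coding genes. Peaks were few at Irx5, and this count does not show how unlike the genes were.

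Irx1 (ENSMUSG00000060969.9, chromosome 13, 71957921 to 71963723, minus strand), known from lung, limb and neural patterning, differed most between the libraries. Replicate 1 gave 12 peaks with either control, and replicate 2 gave 2. Together they took up 13.2% (replicate 1, input), 10.4% (replicate 1, IgG) and 1.93% (replicate 2) of its window of 15.8 kb. Both calls of replicate 1 were thus high, and replicate 2 was low. The mean of the replicates against input was 7.55% ± 7.95 (SD, n = 2), so that the spread was larger than the mean.

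Of the 12 replicate 1 peaks at Irx1, 5 lay upstream, 4 downstream, 2 in introns and 1 touched an exon. The peak closest to the gene start was 777 bp away in replicate 1, 644 bp away against IgG and 2069 bp away in replicate 2. The highest fold enrichment over input at any member, 3.56, belonged to a peak 3651 bp upstream of Irx1, which had a −log10 p of 3.59 and stood for 6.08 tags. This peak was called against input and overlapped no peak of the other lists. It is printed on the minus strand, with CG in capitals, as the strongest single peak of the family.
Irx1 upstream, chr13:71967374-71967565: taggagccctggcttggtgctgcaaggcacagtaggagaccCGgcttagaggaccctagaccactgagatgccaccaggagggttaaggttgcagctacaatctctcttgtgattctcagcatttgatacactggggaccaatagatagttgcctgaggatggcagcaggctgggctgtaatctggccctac
The peak held 1 CG in 192 bp and a GC content of 54.2%.

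Irx2 (ENSMUSG00000001504.10, chromosome 13, 72628820 to 72634198, plus strand), a neighbour of Irx1 in the cluster that is often expressed with it, had similar peak numbers in all lists. Replicate 1 gave 7 peaks with input and 9 with IgG as the control, and replicate 2 gave 8. In the same order, 5.64%, 11.4% and 9.96% of the window lay under peaks, and the mean of the replicates against input was 7.80% ± 3.05 (SD, n = 2). The IgG call of replicate 1 was about as high as replicate 2, and the input call was the low one. The IgG call included a peak of 651 bp that crossed the upstream edge of the window and overlapped peaks of both other lists.

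Peaks bracketed the start of Irx2 in both replicates. In replicate 1 the closest lay 965 bp upstream and a further one began 1582 bp downstream. In replicate 2 a peak lay 451 bp upstream and another began 397 bp downstream, in coding sequence. Of the replicate 1 peaks, 4 were in the flanks, 2 in introns and 1 touched an exon, and of the replicate 2 peaks 5, 1 and 2, respectively. Of the upstream peaks, 2 in replicate 1, 2 in its IgG call and 1 in replicate 2 lay in the lincRNA gene Gm20554, which is transcribed away from Irx2.

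Irx4 (ENSMUSG00000021604.15, chromosome 13, 73260479 to 73269608, plus strand), known as a regulator of ventricular heart muscle genes, was the member in which replicate 2 was highest. Replicate 1 gave 7 peaks with input and 8 with IgG as the control, and replicate 2 gave 9. Of its window, 5.91%, 6.73% and 13.4% lay under peaks. Here both calls of replicate 1 were close to each other and replicate 2 stood above them, in the opposite order to Irx1. The mean of the replicates against input was 9.66% ± 5.30 (SD, n = 2).

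At Irx4 the gene start had a peak within 1 kb in all lists, 519 bp away in replicate 1 and against IgG and 413 bp away in replicate 2. The replicate 2 peak was 683 bp long and took in both of the intronic stretches printed above. Of the 9 replicate 2 peaks, 4 lay in the flanks, 3 in introns and 2 touched exons. The highest fold enrichment at Irx4 was 2.82 in replicate 1, 3.33 against IgG and 2.79 in replicate 2.

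Irx3 (ENSMUSG00000031734.13, chromosome 8, 91798525 to 91802067, minus strand), known from limb bud and neural tube patterning, had 2 peaks in replicate 1 with input as the control and 0 in each of the other lists. Of the window, 1.71%, 0% and 0% was covered, a mean over the replicates of 0.857% ± 1.21 (SD, n = 2). Both peaks were upstream, 2014 bp and 4715 bp from the start, within the antisense gene Irx3os. Neither overlapped a peak of another list. The gene body of Irx3 was thus free of peaks in every list.

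The peaks near Irx3 lay farther upstream. The closest was 8887 bp from the start in replicate 1 against IgG and 5815 bp from it in replicate 2, just outside the window. The first 50 kb upstream of the start held 8, 7 and 4 peaks in the 3 lists. With a flank of 10 kb in place of 5 kb, members with a peak in both replicates rose from 4 to 5, the added gene being Irx3.

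Irx5 (ENSMUSG00000031737.11, chromosome 8, 92357625 to 92376286, plus strand), known from heart and retina and often expressed with Irx3, had 1 peak in each replicate and 0 in the IgG call of replicate 1. In replicate 1 the peak took up 0.495% of the window and in replicate 2 it took up 0.816% (0% with IgG), a mean over the replicates of 0.656% ± 0.227 (SD, n = 2). The peaks were at opposite ends of the gene. The replicate 1 peak was in the downstream flank, 21058 bp from the start, at the lowest pileup of its list. The replicate 2 peak was in an intron, 1602 bp from the start, and is printed on the plus strand as the one peak of replicate 2 in the chromosome 8 windows.
Irx5 intron, chr8:92359227-92359460: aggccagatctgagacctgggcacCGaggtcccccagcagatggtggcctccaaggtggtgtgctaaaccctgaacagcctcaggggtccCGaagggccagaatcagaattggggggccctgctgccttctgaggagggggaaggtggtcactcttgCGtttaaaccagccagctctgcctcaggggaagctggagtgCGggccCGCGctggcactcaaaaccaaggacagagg
It held 6 CG in 234 bp, with a GC content of 62.4%.

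Irx6 (ENSMUSG00000031738.14, chromosome 8, 92674288 to 92680956, plus strand), known from retinal interneurons, was marked in one library. Replicate 1 gave 2 peaks with input and 4 with IgG, which took up 1.44% and 3.32% of the window, and replicate 2 gave 0 (0%). The mean over the replicates was 0.720% ± 1.02 (SD, n = 2). Both peaks called against input were also called against IgG, while the nearest replicate 2 peak was 74826 bp from the start. The intronic peak of replicate 1 stood for 6.00 tags and is printed on the plus strand because it was the highest replicate 1 peak in the chromosome 8 windows.
Irx6 intron, chr8:92675285-92675420: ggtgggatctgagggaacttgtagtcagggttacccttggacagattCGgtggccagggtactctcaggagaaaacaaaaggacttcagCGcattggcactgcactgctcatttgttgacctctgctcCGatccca
It began 997 bp from the start and held 3 CG in 136 bp.

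**Figure D1:**
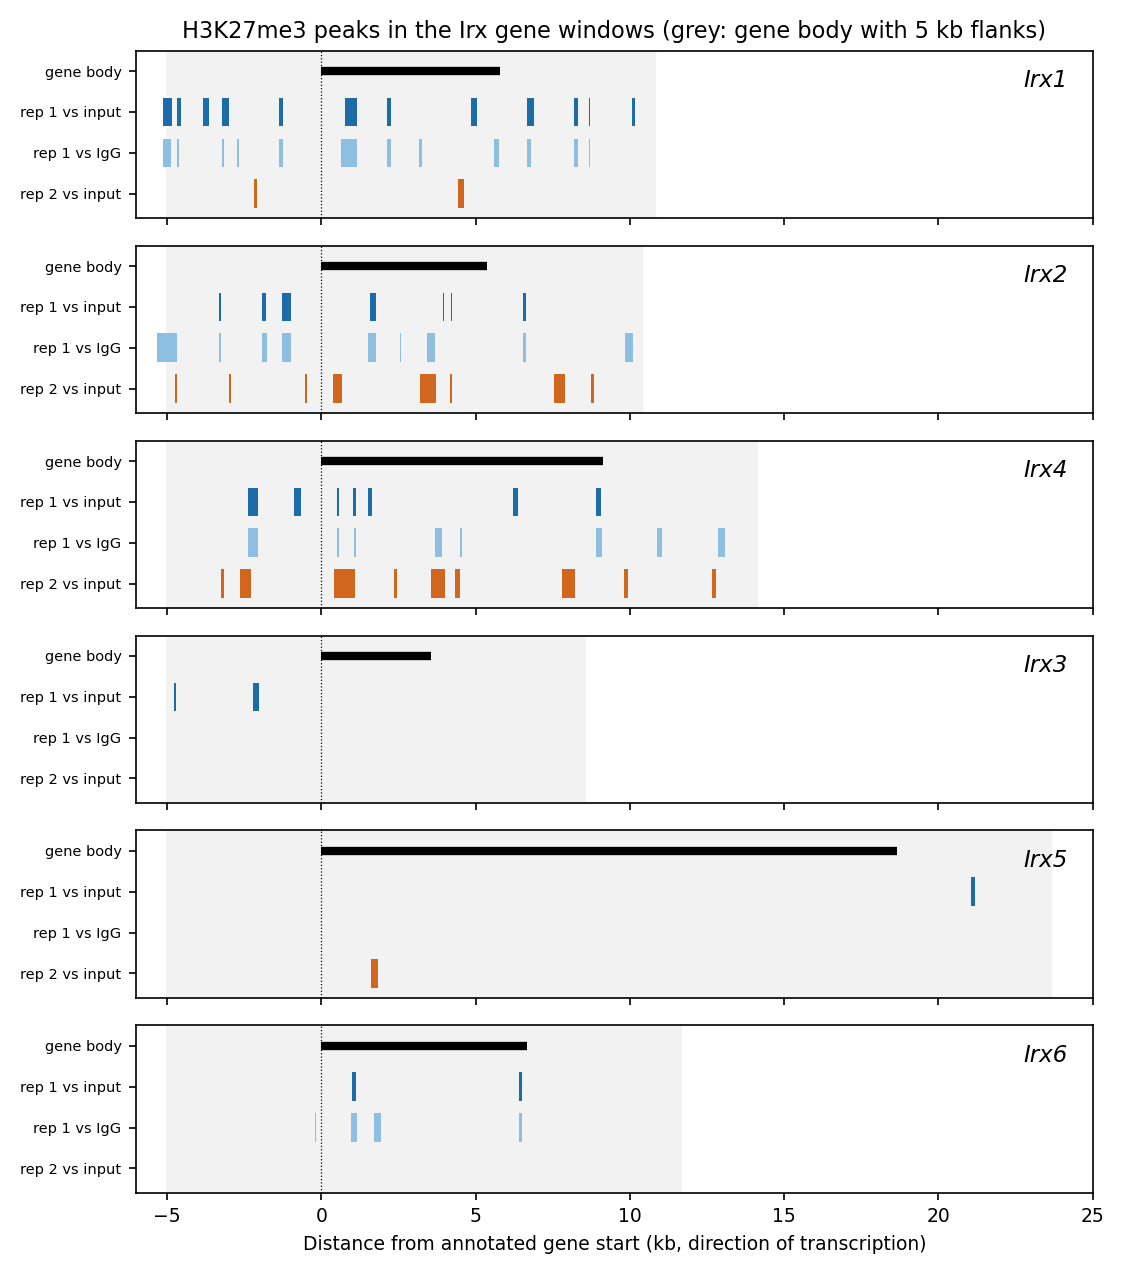
Peaks (coloured blocks) in the windows of the 6 Irx genes, by distance from the annotated gene start in kb along the direction of transcription, with 1 row per peak list, the gene body in black and the window in grey. Irx1 has 12 peaks in replicate 1 and 2 in replicate 2, Irx2 and Irx4 have 7 to 9 peaks in every list, and Irx3, Irx5 and Irx6 have 0 to 4.

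**Figure D2:**
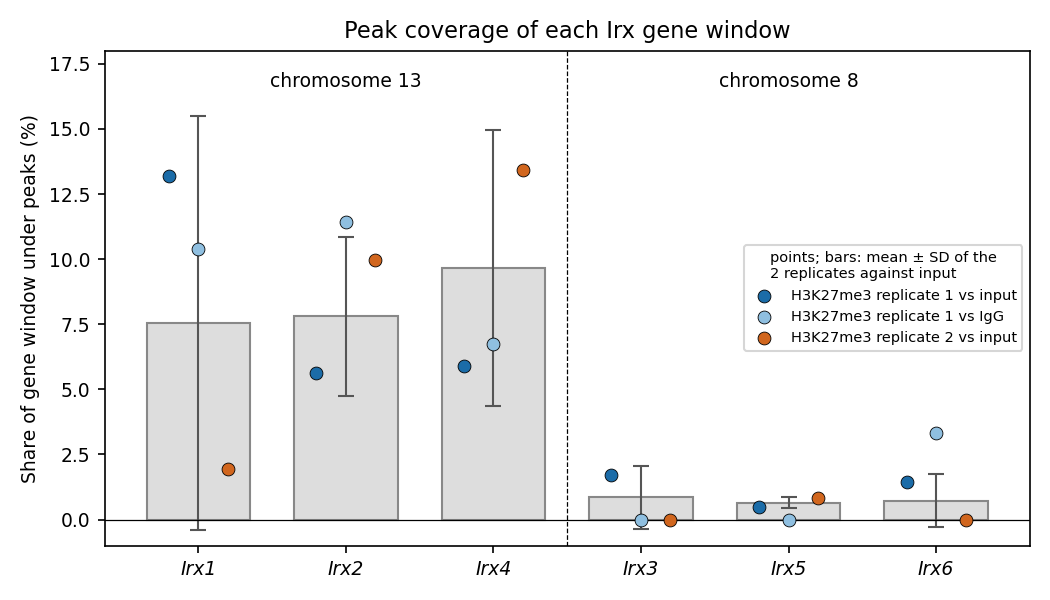
Share of each gene window under peaks (percent), with points for the 3 peak lists and bars for the mean ± SD of the 2 replicates against input. The points of Irx1, Irx2 and Irx4 range from 1.93% to 13.4%, and those of Irx3, Irx5 and Irx6 from 0% to 3.32%.

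In the order of mean covered share the genes were Irx4, Irx2, Irx1, Irx3, Irx6 and Irx5. Each neighbour in this order differed from the next by less than the larger of their SDs. This includes Irx1 and Irx3, because replicate 2 placed Irx1 at 1.93%. Single genes of the different clusters were therefore not all separated by the spread between libraries, and the clusters were compared over their pooled windows.

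The chromosome 13 cluster had 8.11% of its windows under peaks in replicate 1 with input as the control, 9.31% with IgG and 8.75% in replicate 2, over windows of 50.3 kb in all. The chromosome 8 cluster had 1.04%, 0.941% and 0.397% over 58.9 kb. Every list thus placed the former above the latter, with ratios of 7.78, 9.89 and 22.0. The means of the replicates against input were 8.43% ± 0.448 and 0.720% ± 0.456 (SD, n = 2), and the difference was 7.71 percentage points ± 0.905 (SD, n = 2). The difference exceeded the spread between the libraries. An exact permutation test that flips the sign of the difference in each of 2 libraries, two-sided, gave p = 0.5, which is the smallest p that 2 libraries allow.

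The peak numbers followed the same order. On chromosome 13 there were 26, 29 and 19 peaks in the 3 lists, and on chromosome 8 there were 5, 4 and 1. Per 100 kb of window this was 51.7, 57.6 and 37.8 peaks on chromosome 13 and 8.49, 6.79 and 1.70 on chromosome 8. Over the sequenced genome the values were 0.860, 0.940 and 1.26. At a fold enrichment of 3 or higher, 6 replicate 1 peaks against input were left, at Irx1 and Irx2, and 0 replicate 2 peaks, so the counts in both replicates fell to 0. At a −log10 p of 3 or higher, 2 peaks of each replicate were left, and Irx2 was the 1 member with a peak in both.

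Among protein-coding genes, the covered share of Irx1 exceeded that of 99.8% in replicate 1 and 97.0% in replicate 2. Irx2 exceeded 99.2% and 99.7%, and Irx4 99.3% and 99.9%. The chromosome 8 genes were lower in this ranking wherever they had a peak. Irx3 exceeded 97.4% of genes in replicate 1, Irx6 96.9% in replicate 1, and Irx5 91.3% and 90.1% in replicates 1 and 2. Most genes have no peak, so that a single short peak places a gene high.

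**Figure D3:**
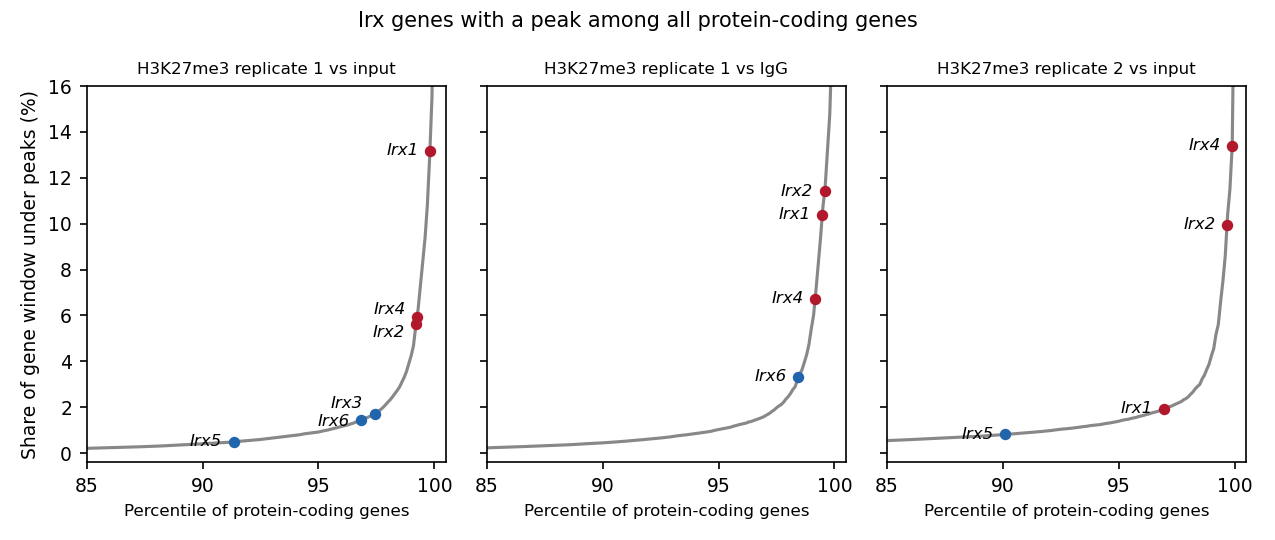
Share of the gene window under peaks (percent) against the percentile among protein-coding genes, in a panel for each peak list, where the grey curve is all genes from the 85th percentile up and points are Irx genes with a peak (red for chromosome 13, blue for chromosome 8). Irx1, Irx2 and Irx4 sit on the steep end of the curve in replicate 1, while in replicate 2 Irx1 lies at 1.93%, near the bend.

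Peaks at gene starts were counted separately, since H3K27me3 is known to build up around promoters. Within 1 kb of the start, a peak was present at Irx1, Irx2, Irx4 and Irx6 in replicate 1 against input (4 of 6, background 3.87%) and at the same genes in the IgG call (4 of 6, background 4.52%). In replicate 2 it was present at Irx2 and Irx4 (2 of 6, background 4.16%). Irx2 and Irx4 were therefore the members with a marked start in both replicates, 2 of 6 beside 1.04% of protein-coding genes. With replicate 2 cut back to as many peaks as replicate 1 (22757), by p-value, this count fell to 0.

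The peaks away from the genes were counted next. The stretch between the members, outside their windows, is 1271 kb long on chromosome 13 and 834 kb on chromosome 8. It held 38, 56 and 32 peaks on chromosome 13 and 28, 36 and 21 on chromosome 8 in the 3 lists. Per 100 kb this was 2.99, 4.40 and 2.52 peaks on chromosome 13 and 3.36, 4.32 and 2.52 on chromosome 8. These densities were all above those of the genome, and the means over the replicates against input, 2.75 ± 0.334 and 2.94 ± 0.594 (SD, n = 2), differed by less than their spread. This did not hold in every setting. With 50 kb around each gene kept out they were 2.24 ± 0.324 and 2.75 ± 0.216 (SD, n = 2). At a −log10 p of 3 or higher they were 0.0393 ± 0.0556 and 0.300 ± 0.0848 (SD, n = 2). Chromosome 8 was higher by more than either SD in both settings. The densities at the stricter cutoff stand for very few peaks in stretches of 1271 kb and 834 kb, so their SDs say little. By mean density over the replicates against input, chromosome 13 was thus not the higher cluster between its genes in these settings. In the IgG call it was slightly higher (4.40 and 4.32). By covered share between the members it was slightly higher in every list. These shares were 0.437%, 0.646% and 0.533% on chromosome 13 and 0.414%, 0.533% and 0.451% on chromosome 8. In the windows chromosome 13 was far higher by both measures. The windows made up 3.81% of the chromosome 13 span and held 40.6% of its peaks in replicate 1 and 37.3% in replicate 2, whereas on chromosome 8 they made up 6.60% and held 15.2% and 4.55%.

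**Figure D4:**
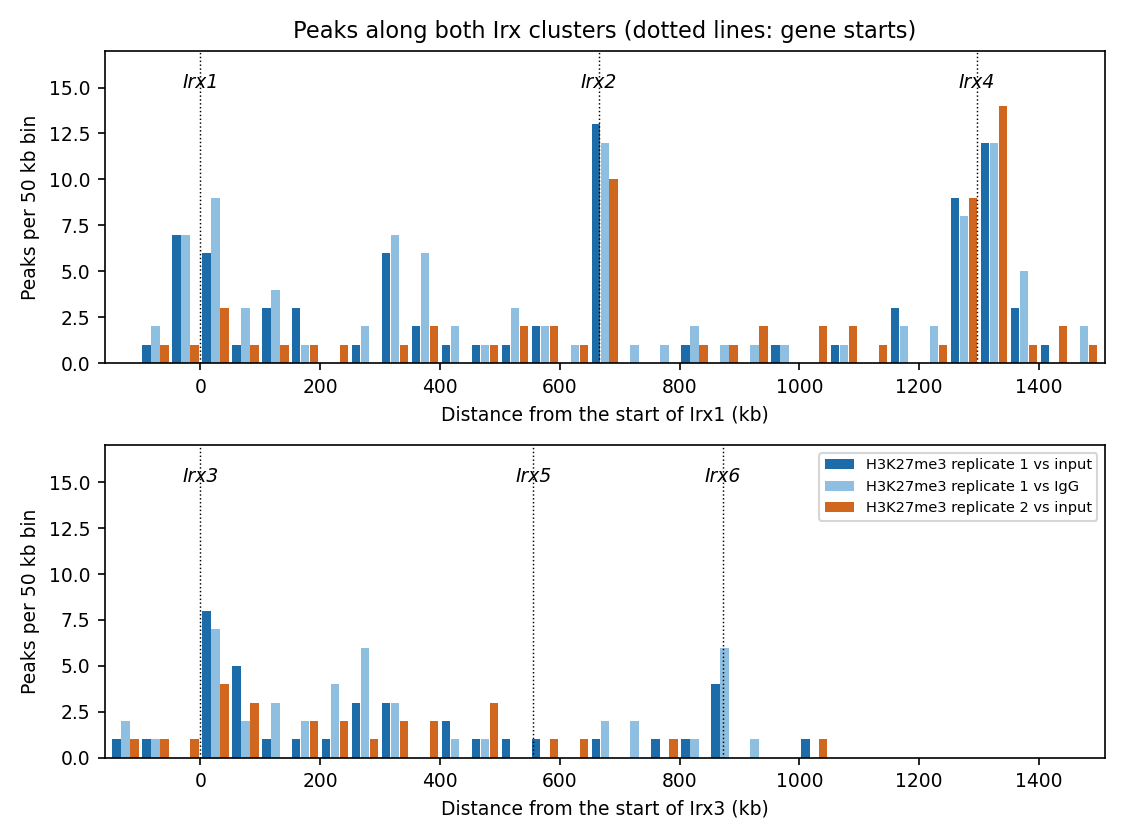
Number of peaks in bins of 50 kb along the chromosome 13 cluster (top) and the chromosome 8 cluster (bottom), by distance in kb from the start of the first gene on the chromosome, with bars for the 3 peak lists and dotted lines at gene starts. The bin of Irx2 holds 13, 12 and 10 peaks and the bins around Irx4 hold 8 to 14, whereas the bin of Irx5 holds 1, 0 and 1.

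Along the chromosome 13 cluster, the bins of 50 kb with the most peaks in replicate 2 were at Irx4 and Irx2. The bin that begins just after the start of Irx4 held 12, 12 and 14 peaks in the 3 lists and the bin before it 9, 8 and 9. The bin of Irx2 held 13, 12 and 10. Between Irx1 and Irx2, the bin from 300 kb to 350 kb held 6, 7 and 1 peaks, again with fewer in replicate 2, as at Irx1. On chromosome 8 the bin with the most peaks in replicate 2 was the first upstream of Irx3, with 4. No other protein-coding gene lies within either cluster.

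How far the mark extended was measured by joining peaks 5 kb or less apart. The longest run at Irx4 was 19.6 kb in replicate 1, 26.1 kb against IgG and 33.5 kb in replicate 2, where it held 15 peaks and reached 21.1 kb past the end of the gene. At Irx2 the runs were 17.5 kb, 25.8 kb and 13.6 kb, and at Irx1 15.3 kb, 13.8 kb and 3.55 kb. The runs of Irx2 and Irx4 thus spanned the gene, except that the replicate 1 run at Irx4 stopped just short of the gene end, while the replicate 2 run near Irx1 lay upstream of the gene. On chromosome 8 the longest run was 7.13 kb, upstream of Irx3 in replicate 1, and Irx5 had single peaks of 0.142 kb and 0.234 kb. At Irx6 the IgG call had a run of 4 peaks over 6.72 kb that nearly spanned the gene. The input call of replicate 1 gave 0.136 kb there, and replicate 2 had no peak. With peaks joined at 1 kb the longest runs at Irx4 were 1.11 kb and 0.975 kb in replicates 1 and 2, so these runs consist of separate short peaks.

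The peaks of the replicates were compared by overlap and by distance within 1 kb, which by definition includes every overlap. Of the 31 replicate 1 peaks at Irx genes, 4 shared at least 1 base with a replicate 2 peak (12.9%, 95% Wilson interval 5.13% to 28.9%), and for the whole list this share was 2.85% (interval 2.64% to 3.08%). A replicate 2 peak was present within 1 kb of 16 (51.6%, interval 34.8% to 68.0%), and for the whole list of 12.7% (interval 12.3% to 13.1%). These intervals cover counting error only, and peaks of a gene are not independent.

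These shares differed between genes. A window with more replicate 2 peaks has more places within 1 kb of one, so the shares are not independent of peak number. Within 1 kb of a replicate 2 peak lay 6 of 7 replicate 1 peaks at Irx2, 5 of 7 at Irx4 and 5 of 12 at Irx1. Of the 5 replicate 1 peaks at the chromosome 8 genes, 0 did, and the Wilson interval of that share reached 43.4%. Between the calls of replicate 1 against input and IgG, which share the H3K27me3 library, 20 of 31 peaks (64.5%) overlapped at Irx genes, and 51.0% of the whole list. Of the IgG calls at Irx4, 5 of 8 shared bases with a replicate 2 peak, at Irx2 2 of 9 and at Irx1 0 of 12. Of the whole IgG list 3.32% did. By overlap of at least 1 base the share was highest at Irx4 (3 of 7 with input, and 1 of 7 at Irx2), and by distance within 1 kb it was highest at Irx2, while the intervals of Irx2 and Irx4 overlapped in both measures.

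The peaks at Irx genes had more GC than those of the lists as a whole. Their median GC content was 54.3%, 53.8% and 54.8% in the 3 lists, compared with 46.4%, 46.9% and 45.1% for all peaks. The windows themselves had a GC content of 49.0% at Irx6 to 54.9% at Irx3, and those on chromosome 13, which held most peaks, had 51.0% to 53.1%. Peaks in the chromosome 13 windows had a median of 54.7%, 53.8% and 54.4%, above each of these 3 windows. The CG content of the 2 kb around the start was 8.25 per 100 bp at Irx1, 8.70 at Irx2, 5.85 at Irx4, 6.85 at Irx3, 8.60 at Irx5 and 5.30 at Irx6. The clusters overlapped in this measure. Irx5 had nearly the CG content of Irx2, with 1 peak in place of 7 in replicate 1. Whether CG content bears on the difference between the clusters was not tested. The median fold enrichment at Irx genes was 2.69, 2.79 and 2.47 in the 3 lists, with 2.63, 2.66 and 2.45 for all peaks, so that the height of Irx peaks was close to that of peaks in general.

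The other TALE homeobox genes were read in the same way. They include the Meis, Pbx and Pknox genes, which encode cofactors of Hox proteins, the Tgif genes and Mkx, a tendon regulator that is the closest relative of the Irx genes. Of these 12 genes, 6 had a peak in both replicates, where 15.7% of protein-coding genes did. Gene length was not allowed for in this count. The median of the mean covered share of the 12 was 0.0989%, compared with 0% for all protein-coding genes. For the 6 Irx genes the median was 4.20%, which falls between the chromosome 13 genes (7.55% to 9.66%) and the chromosome 8 genes and is near no member. Within 1 kb of the start, 0 of the 12 had a peak in both replicates, where 1.04% of protein-coding genes did. Meis1 was covered to 1.49% ± 0.0265 (SD, n = 2), Mkx to 0.609% ± 0.747, Pknox2 to 0.364% ± 0.138 and Pbx3 to 0.0973% ± 0.0247. Meis2, a long gene, had 23 peaks in replicate 1 and 8 in replicate 2, and was covered to 1.59% and 0.815%, respectively. Each of these 5 was below the mean share of Irx1, Irx2 and Irx4, although Irx1 in replicate 2 (1.93%) was close to Meis1. Meis1 and Meis2 had higher mean shares than Irx3, Irx5 and Irx6 (0.656% to 0.857%).

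Finally, the gene most like each member over the 3 lists was found by the Euclidean distance of their covered shares, in percentage points. For Irx2 it was En1, a homeobox gene of the midbrain and limb ectoderm, with 6.57%, 11.3% and 9.47% (distance 1.05). For Irx4 it was Otx1, a homeobox gene of the forebrain, with 6.28%, 5.59% and 12.3% (distance 1.62). For Irx1 it was Hmx3, a homeobox gene of the inner ear, with 12.7%, 10.6% and 4.20% (distance 2.32). The nearest genes of the chromosome 13 members were thus homeobox genes of other families, each with 2 to 11 peaks in every list. For the sparsely covered members the nearest genes were Crabp1 for Irx3 (distance 0.00855), Siglece for Irx5 (distance 0.0485) and Wrap73 for Irx6 (distance 0.285), each of which had 0 to 2 peaks in any list.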

How the data were processed

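Per the study's methods and the file headers, the authors aligned reads to GRCm38 with BWA, kept uniquely mapped reads, and called broad peaks with MACS2 2.1.1.20160309 at a p-value cutoff of 0.005, keeping 1 tag per position and strand. The deposited signal of a peak is its mean pileup of tags, after the larger library was scaled to the smaller. The deposited fold enrichment is a ratio of pileup to local background of the control, which includes a pseudocount of 1, and p-values and q-values were deposited as −log10. Tags were 49 bp long in replicate 1 and 74 bp in replicate 2, and MACS2 applied fragment lengths of 46 bp and 71 bp. Depth, tag length and replicate cannot be told apart.

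Gene windows were gene bodies of GENCODE M21 with 5 kb on each side. Bases under peaks, clipped to the window, were divided by window length in Python 3.11.15 (numpy 2.4.6, pandas 2.3.3, scipy 1.17.1), with code tested on simulated intervals. Tags behind a peak are its pileup divided by the scaling factor of the library. Percentiles are the percent of protein-coding genes with a lower value. An overlap was at least 1 base. No set or enrichment test was run, and the p-value given is from an exact sign-flip permutation test over 2 libraries. All 6 members were named, along with the other TALE genes with a peak in both replicates and the gene nearest in covered share. Of the genes within 5 kb of a member, Gm40999, Gm20554 and Irx3os were named and the others were not described. The values of 1 gene that this rule names are not reported here. The members and lists were chosen with earlier results of these data known. Alternatives were another flank, a fold enrichment of 3, a −log10 p of 3, IgG as control, a reduced replicate 2, each replicate left out and other merging distances.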

Additional observations from a re-analysis of the deposited data

How the results depend on the processing

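The mean covered share was higher in the chromosome 13 than in the chromosome 8 windows under each alternative tried, although at a fold enrichment of 3 replicate 2 had 0% in both, and also when each gene was left out in turn (6.95 to 8.11 percentage points), which was chosen after seeing the data. With gene bodies alone the mean share was 11.1% on chromosome 13 and the difference 10.3, and with a flank of 10 kb they were 6.93% and 5.96. With replicate 2 reduced to the size of replicate 1 they were 6.31% and 5.59, and the start sites marked in both replicates were 0. IgG in place of input gave 9.03% on chromosome 13. With a minimum fold enrichment of 3 the shares were 0.577% and 0%, the difference 0.577, and members, start sites and overlapped peaks in both replicates 0, 0 and 0%. At a −log10 p of 3 or higher these were 0.403%, 0%, 0.403, 1, 0 and 0%, and the densities between members 0.0393 and 0.300 per 100 kb. Keeping 50 kb flanks out gave 2.24 per 100 kb on chromosome 13 and 2.75 on chromosome 8, which differed by more than their SDs. So did the densities at a −log10 p of 3, which stand for very few peaks. Fewer peaks are part of the construction of the stricter cutoffs. Counting a replicate 2 peak within 1 kb in place of an overlap gave 51.6%, which by construction cannot be the lower share. Leaving out each replicate gave 4 to 6 members, 2 to 4 start sites, shares of 8.11% to 8.75% and 0.397% to 1.04%, and a difference of 7.07 to 8.35.

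No paired analysis was possible because the H3K27me3 and input libraries, which share replicate numbers, have no separate values in the peak lists. The clusters were compared within each H3K27me3 library. With 4 to 7.40 tags behind a peak, positions and single-gene values are limited by counting error, and 2 libraries cannot give a p below 0.5.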
